A study of Mus musculus with 4 samples.

Results

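The genes described here encode the proteins of the cytosolic ribosome. They were chosen by name, as the gene columns with an Rpl or Rps symbol followed by a number and at most 1 letter of a, x or l, together with Rplp0, Rplp1, Rplp2 and Rpsa. This took 80 of 22631 gene columns, 31 for the small subunit and 49 for the large subunit, and left out pseudogene columns and the ribosomal S6 kinases. Of the 80, 79 had at least 1 unique molecular identifier (UMI, the tag that counts an original RNA molecule), and the exception, Rpl10l, was listed at 0 in every cell.

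All mice carried the IL-12p40-IRES-EYFP transgene, a reporter of the p40 chain of interleukin 12, and bore MC38 colon carcinoma in the flank. Tumours had grown for 7 days when mice stayed untreated (1 tumour) or received 5 mg/kg of agonist anti-CD40 antibody by the intraperitoneal route (2 tumours). At day 2 after treatment, CD45+ cells, which are cells of blood origin, were sorted and profiled by inDrops, a droplet method. The untreated tumour and anti-CD40 tumour 1 shared pools 1 and 2, whereas anti-CD40 tumour 2 was alone in pools 3 and 4, so that this tumour and its pools cannot be told apart.

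The ribosome joins a small subunit, which reads the messenger RNA, to a large subunit, which forms the peptide bonds. Its proteins are needed in near equal amounts, and most of their messenger RNAs start with a run of pyrimidines, the terminal oligopyrimidine tract, through which growth signals control their translation. Neutrophils are short-lived cells that build most of their granule proteins before they leave the bone marrow, while lymphocytes and macrophages go on to divide or to renew their proteins in tissue.

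The data held 4440 cells and 3961141 UMIs in 12 libraries, with a median per cell of 433 UMIs (untreated), 979 (anti-CD40 tumour 1) and 865 (anti-CD40 tumour 2). No barcode was shared by libraries. Types were the authors' own, and 4 of the 7 held enough cells in every tumour (at least 20): monocytes, macrophages and dendritic cells as 1 class, called myeloid cells below, neutrophils, T cells and NK cells. Their defining markers fitted the names: the 8 neutrophil markers (S100a8, S100a9 and others) summed to between 35964 and 98730 counts per 1000000 UMIs (CPM) in neutrophils and to at most 2283 CPM elsewhere, and the 7 NK markers summed to at least 7463 CPM in NK cells and to at most 531 CPM elsewhere. Because the authors named the types from the expression of the same cells, types are described tumour by tumour and not tested.

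Ribosomal protein genes took a far smaller share of the UMIs of neutrophils than of any other type. In neutrophils the summed share was 2.13% when untreated (501 of 23468 UMIs, exact Clopper-Pearson 95% interval 1.95 to 2.33%). It was 1.13% in anti-CD40 tumour 1 (8069 of 712755, 1.11 to 1.16%) and 1.29% for anti-CD40 tumour 2 (2227 of 172591, 1.24 to 1.34%). Myeloid cells stood at 13.5%, 11.9% and 11.7% in the same order. T cells stood at 17.3%, 17.6% and 17.9%. NK cells stood at 23.3%, 14.9% and 21.2%. Intervals here and below cover counting error only.

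Within a tumour the myeloid share was 6.34, 10.5 and 9.03 times that of neutrophils, the T cell share 8.10, 15.5 and 13.9 times, and the NK cell share 10.9, 13.2 and 16.4 times. No library crossed this gap: the highest neutrophil library held 2.47%, against 10.9% in the lowest myeloid library. Order among the other types was less fixed. NK cells lay above T cells in the untreated tumour and in anti-CD40 tumour 2 (1.35 and 1.18 times) but below them in anti-CD40 tumour 1 (0.849 times), where only 28 NK cells were present. Of B cells, the untreated tumour held 20 with a share of 17.3% (16.6 to 17.9%), and the treated tumours held only 2 and 5 cells.

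**Figure D1:**
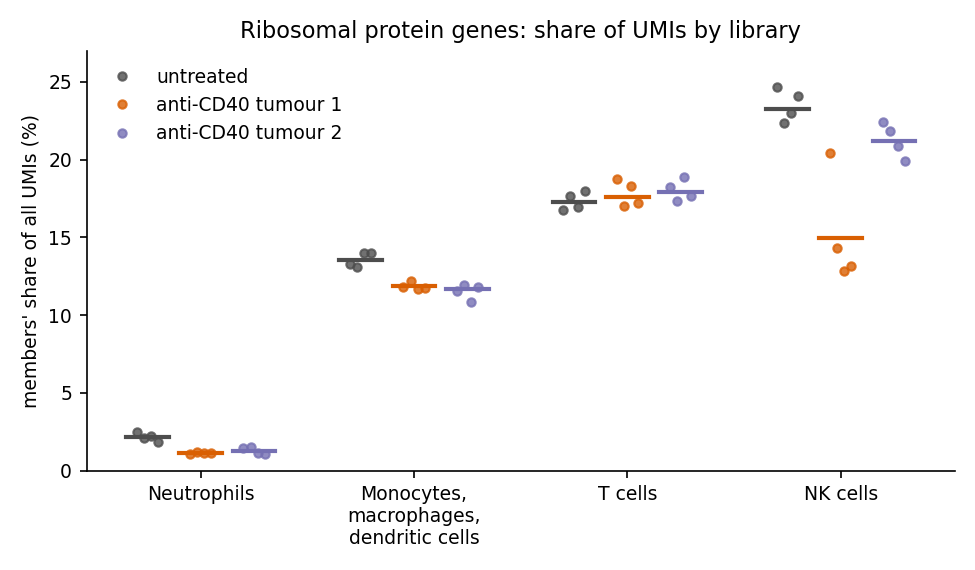
Summed ribosomal protein share of UMIs (vertical axis, percent) for the 4 cell types, with each of the 4 libraries per tumour as a point and the share over all cells of the tumour as a bar. All neutrophil libraries lie at or below 2.47%, and 3 of the 4 NK cell libraries of anti-CD40 tumour 1 lie below the T cell libraries.

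The gap held cell by cell. The median neutrophil had a share of 2.06%, 1.05% and 1.02% in the 3 tumours, against 13.7%, 11.6% and 11.6% for the median myeloid cell. Of 49, 700 and 215 neutrophils, 0, 0 and 2 reached the 5th percentile of the myeloid cells of their tumour. For the 5th percentile of T cells, these counts were 0, 0 and 1. With every cell thinned to 300 UMIs, which left out 8, 33 and 15 neutrophils and 281, 29 and 67 myeloid cells, the share was 2.27%, 1.18% and 1.39% in neutrophils and 13.6%, 12.1% and 11.97% in myeloid cells.

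What fills the rest of a neutrophil library also differed. The 20 most abundant genes that are not members held 18.7%, 25.7% and 25.02% of neutrophil UMIs, against 10.7 to 14.1% in the other types. Without those genes and the mitochondrial genes, the neutrophil share was 2.66%, 1.53% and 1.73% and the myeloid share 15.6%, 13.5% and 13.7%. Mitochondrial genes, a sign of RNA quality, were 0.861%, 0.274% and 0.505% of neutrophil UMIs and at least 2.02% elsewhere. The 12 dissociation stress genes summed to between 29312 and 47830 CPM in neutrophils and to at most 12794 CPM elsewhere. The part of mitochondrial or stress genes in the neutrophil gap was not tested. C1qa, a complement gene of macrophages, was at 85.2, 4.21 and 23.2 CPM in neutrophils, against 5215, 972 and 3240 CPM in myeloid cells. The 9 markers of monocytes, macrophages and dendritic cells summed to 1023, 4390 and 2967 CPM in neutrophils, against at least 16143 CPM in myeloid cells. That list holds Lyz2, which mature neutrophils also express. Cells with at least 3 UMIs of markers of a second type were 4.08%, 42.9% and 23.7% of neutrophils. With such cells left out of every type, the neutrophil share was 2.10%, 1.19% and 1.33%. The myeloid share was then 13.54%, 11.96% and 11.87%. The part in the gap of cells with fewer such UMIs was not tested.

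Taken 1 by 1, the members moved together. Over all 12 sums of tumour and cell type, 75 of the 80 members passed the count filter, as did 2854 genes in all. The 5 that did not were Rpl10, Rps27, Rpl10l, Rpl39l and Rpl3l. All 75 lay lower in neutrophils than in myeloid cells with no overlap between the 3 tumours of each type, whereas 45.6% of all genes did so. The same held for 75 of 75 against T cells (43.7% of all genes) and for 75 of 75 against NK cells (38.2%). With TMM scaling over the 12 sums, a choice added after seeing the data, the counts were 74, 73 and 74 of 75 against 38.7%, 35.9% and 30.5% of all genes.

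Both subunits were low in neutrophils. Small-subunit members held 41.5%, 46.9% and 44.5% of the members' UMIs in neutrophils and between 40.3% and 42.7% in the other types. The median drop over 72 members (those with on average at least 0.2% of the members' UMIs) was 10.7-fold from myeloid cells to neutrophils, 14.2-fold from T cells and 16.04-fold from NK cells.

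**Figure D2:**
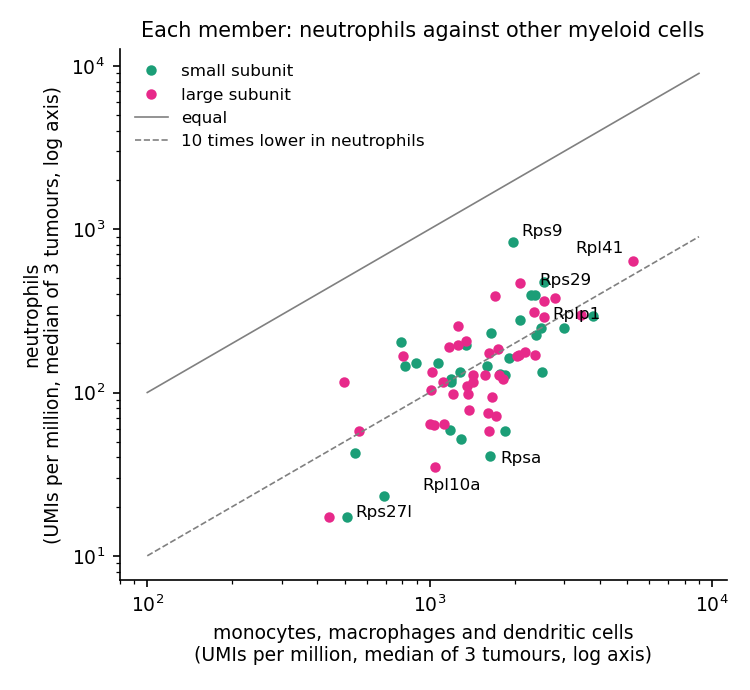
Level of each of the 72 members in neutrophils (vertical axis) against myeloid cells (horizontal axis), as the median CPM of 3 tumours on log axes, coloured by subunit. All points lie below the line of equal levels and most lie near the line of a 10-fold drop, with Rps9 highest and Rpsa lowest relative to it.

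Among small-subunit genes, Rpsa had the largest ratio of myeloid cells to neutrophils. Its protein sits on the small subunit and is also known as the laminin receptor. Rpsa was at 128, 40.7 and 34.8 CPM in neutrophils (3, 29 and 6 UMIs) and at 1635, 1679 and 1432 CPM in myeloid cells. The ratio of myeloid cells to neutrophils was 12.8 (counting interval 4.36 to 62.1), 41.3 (28.5 to 61.9) and 41.2 (18.9 to 112), and no tumours of the types overlapped. T cells held the highest Rpsa levels, 3017, 3533 and 3841 CPM.

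Rps4x, the X-linked copy of an RNA-binding protein of the subunit, had 0 of 23468 UMIs in untreated neutrophils, which allows up to 128 CPM, and was at 51.9 and 63.7 CPM in the treated tumours. In myeloid cells Rps4x stood at 1267, 1291 and 1510 CPM. Rps29, a small zinc-binding protein, was at 852, 300.2 and 394 CPM in neutrophils against 3829, 2224 and 2286 CPM in myeloid cells.

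At the other end stood Rps9, a protein of the small subunit's early assembly that helps decoding accuracy. Rps9 was at 554, 1069 and 834 CPM in neutrophils (13, 762 and 144 UMIs), against 1979, 1954 and 2369 CPM in myeloid cells. The ratio was 3.57 (2.08 to 6.73), 1.83 (1.67 to 2.01) and 2.84 (2.40 to 3.38). Neutrophils therefore still lay below myeloid cells for Rps9 in every tumour, but by the smallest median fold of the 72. Rps13 had a median ratio of 4.05, with 256, 168 and 203 CPM in neutrophils.

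Large-subunit genes spanned a like range. Rpl10a, part of the stalk at which transfer RNAs leave, was at 42.6, 11.2 and 34.8 CPM in neutrophils (1, 8 and 6 UMIs) and at 1047, 1086 and 1047 CPM in myeloid cells. Its ratio was 24.6 (4.40 to 973), 96.8 (48.8 to 225) and 30.1 (13.8 to 82.2). Rpl32 had ratios of 15.7 (5.37 to 76.4), 28.6 (20.5 to 41.1) and 28.0 (15.2 to 58.5). The smallest drops of the subunit were those of Rpl23a (median 3.76), which binds near the exit of the nascent chain, and Rpl37 (median 3.83).

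Rpl41, a peptide of a few residues, was at 1449, 560 and 637 CPM in neutrophils, 6573, 5269 and 4940 CPM in myeloid cells and 13339, 6125 and 6169 CPM in NK cells. Rpl3, next to the peptidyl transferase centre, was at 85.2, 21.0 and 57.9 CPM in neutrophils and 709, 561 and 363 CPM in myeloid cells. Rpl39, which lines the exit tunnel, was at 298, 71.6 and 133 CPM in neutrophils and 1451, 1022 and 888 CPM in myeloid cells.

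The stalk proteins Rplp0, Rplp1 and Rplp2 recruit the elongation factors. Rplp0 was at 256, 160 and 174 CPM in neutrophils against 2228, 1628 and 1278 CPM in myeloid cells. Rplp1 was at 597, 205 and 365 CPM against 3771, 2548 and 2216 CPM. Rplp2 showed 1 of the smallest drops, at 128, 60.3 and 116 CPM against 498, 520 and 342 CPM. The 3 genes together held 3.29 to 5.34% of the members' UMIs over the 12 sums, and the neutrophil values (4.59%, 3.76% and 5.07%) lay within that range.

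Dividing each member by the sum of all members shows which ones depart from the common drop. Of the 72 members, 49 had neutrophil values that overlapped another type, 7 lay above and 16 lay below all 9 other sums. The count compares values without their counting error, and no share over all genes stands beside it, since the measure covers members alone. Rps9 departed most: it made up 2.59% (1.39 to 4.40%), 9.44% (8.81 to 10.1%) and 6.47% (5.48 to 7.57%) of the members' UMIs in neutrophils. Elsewhere it made up 1.46 to 2.03% in myeloid cells, 0.989 to 1.41% in T cells and 1.09 to 1.34% in NK cells. The untreated value rests on 13 UMIs, and its interval overlaps the myeloid range.

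Rps16 held 2.56 to 3.79% of the members' UMIs in neutrophils against 1.97 to 2.32% over the other sums. Rps27a, which is made as a fusion with ubiquitin, held 2.59% (1.39 to 4.40%), 4.19% (3.76 to 4.65%) and 2.42% (1.83 to 3.15%) in neutrophils. Elsewhere Rps27a held at most 2.31%, so that only anti-CD40 tumour 1 was higher beyond counting error. Rpl37a, Rps25 and Rpl23 were also among the 7. The 16 on the low side were Rpl10a, Rpsa, Rpl32, Rpl36a, Rpl4, Rps4x, Rpl5, Rps15a, Rps19, Rpl27, Rps20, Rpl6, Rpl13, Rps23, Rpl18 and Rps24. Many untreated neutrophil values rest on few UMIs, such as 1 for Rpl10a, 3 for Rpsa and Rpl32 and 4 for Rpl13. Their untreated intervals reach other types (Rpsa 0.124 to 1.74%, Rpl13 0.218 to 2.03%). In both treated tumours the intervals of Rpsa, Rpl10a and Rpl32 stayed below the values elsewhere. Rpsa, at 0.599%, 0.359% and 0.269%, lay under 1.09 to 2.14% elsewhere. Rpl5, which carries the 5S ribosomal RNA into the large subunit, held 0.46 to 0.90% in neutrophils against at least 0.91% elsewhere.

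**Figure D3:**
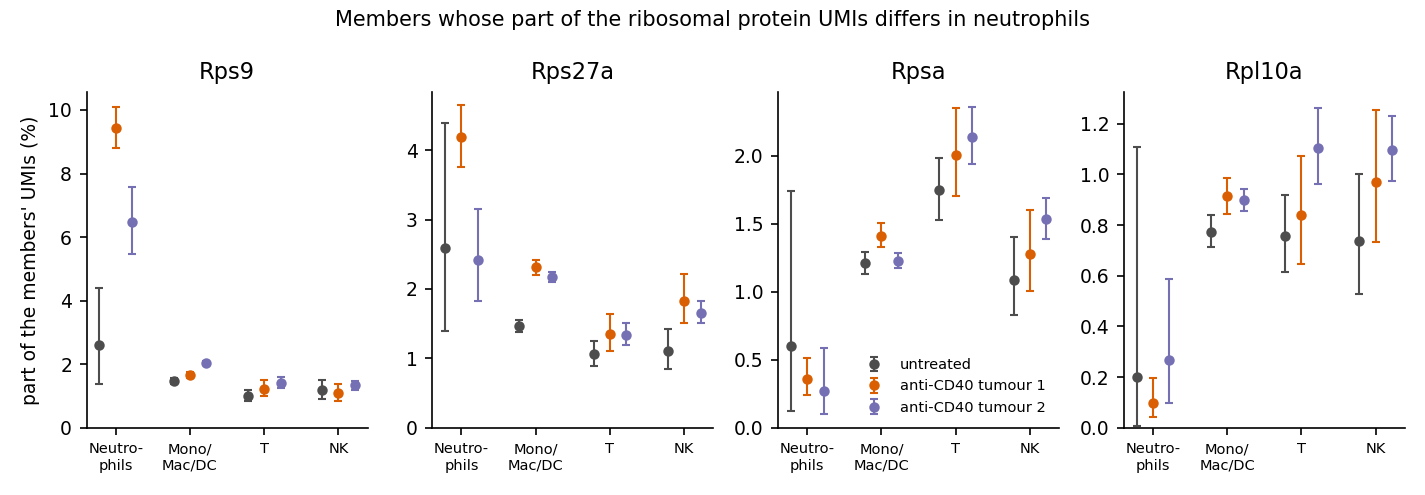
Part of the members' UMIs (vertical axis, percent) taken by Rps9, Rps27a, Rpsa and Rpl10a in each cell type and tumour, with exact 95% counting intervals. Rps9 reaches 9.44% and 6.47% in neutrophils of the treated tumours and stays at or below 2.03% in the other types, whereas Rpsa and Rpl10a are lowest in neutrophils.

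Rps9 lies on chromosome 7 (chr7:3703993-3706897, plus strand, GRCm38). No other annotated gene overlaps its exons. The next gene, Pirb, an inhibitory receptor of myeloid cells, lies on the other strand 4512 bases beyond and was at 256, 706 and 301 CPM in neutrophils and at 249, 386 and 368 CPM in myeloid cells. Whether reads are shared between the genes was not tested.

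Starts of 5 members are shown for the runs of pyrimidines near them, in genes that departed in different directions. Rps9 and Rps16 had a higher part in neutrophils, Rpl18 and Rps24 a lower part, and Rps27l differed between myeloid cells and lymphocytes. The lower parts lay close to the other types: Rpl18 reached 1.56% in neutrophils against at least 1.61% elsewhere, and Rps24 1.98% against at least 2.21%. Counting intervals were not formed for either gene. Each stretch runs 5′ to 3′ from 40 bases before to 20 bases after the RefSeq start (build GRCm38.p6), and capitals mark the run of C and T of at least 5 bases nearest the start. They lie at chr7:3704001-3704060, chr7:28350649-28350708, chr7:45718031-45718090, chr14:24490638-24490697 and chr9:66946046-66946105, all on the plus strand, in this order.
Rps9: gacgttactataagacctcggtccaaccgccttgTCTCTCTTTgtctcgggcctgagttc
Rps16: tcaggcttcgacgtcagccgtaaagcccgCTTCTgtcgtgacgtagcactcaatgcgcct
Rpl18: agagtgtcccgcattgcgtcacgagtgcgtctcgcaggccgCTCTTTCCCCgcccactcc
Rps24: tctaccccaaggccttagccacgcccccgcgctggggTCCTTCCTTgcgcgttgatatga
Rps27l: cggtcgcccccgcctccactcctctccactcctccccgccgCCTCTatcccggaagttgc

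The run was 9 bases long in Rps9, 5 in Rps16, 10 in Rpl18, 9 in Rps24 and 5 in Rps27l. That of Rps16 lay wholly before the RefSeq start. The other annotation used for positions begins Rps16 further upstream, at chr7:28350652, so that the run lies inside the gene there. Rps24 and Rps27l each have a further RefSeq start, not printed, with no such run within 10 bases. Whether these runs act as oligopyrimidine tracts was not tested. RefSeq start windows (250 bases before to 50 after) matched 60 of the 80 members, with 72 windows, and were compared with 20332 windows of other genes. CTTTCC on the sense strand within 15 bases of the start was in 13.9% of member windows and in 1.58% of the others. CCGGAAG, a core motif of ETS factors, was on either strand in 36.1% of member windows against 11.7%. GCCATNTT, a YY1 motif, was on either strand in 20.8% against 6.39%, and TATAAA was in 8.33% against 12.4%. These matches describe letters only.

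The authors' neutrophil subsets, named N1a to N5, all had a lower summed share than the myeloid cells of their tumour. Among subsets with at least 20 cells in anti-CD40 tumour 1, N2 had 1.05% (1.00 to 1.09%), N1a 1.10%, N1b 1.14%, N3 1.16% and N5 1.37% (1.28 to 1.45%). In anti-CD40 tumour 2 the order was N2 1.09% (0.976 to 1.203%), N3 1.16% and N5 1.74% (1.62 to 1.86%). N5 was thus the highest of the well-filled subsets in both treated tumours, beyond counting error. The untreated tumour held at most 15 cells per subset, among which N5 had 2.58% (2.20 to 3.00%) and N3 1.59% (1.31 to 1.92%). N4 had 4.07%, 2.51% and 3.22%, but with only 2, 1 and 1 cells.

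Rps9 followed another order. In anti-CD40 tumour 1 it made up 10.2% of the members' UMIs in N1a, 10.8% in N1b and 11.2% in N2, then 7.77% in N3 and 4.01% in N5 (2.88 to 5.42%). In anti-CD40 tumour 2 the part was 9.78% in N2, 5.61% in N3 (3.98 to 7.66%) and 4.52% in N5 (3.18 to 6.20%). N5 therefore had the highest summed share and the lowest part of Rps9 of these subsets in both tumours. For Rps9 the intervals of N3 and N5 overlapped in anti-CD40 tumour 2. Cells with at least 3 UMIs of markers of a second cell type were 73.4% of N1a, 61.5% of N1b, 51.5% of N2, 8.40% of N3 and 2.08% of N5 in anti-CD40 tumour 1. The marker list behind this holds Lyz2, which mature neutrophils also express, and its part in the subset order was not tested.

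**Figure D4:**
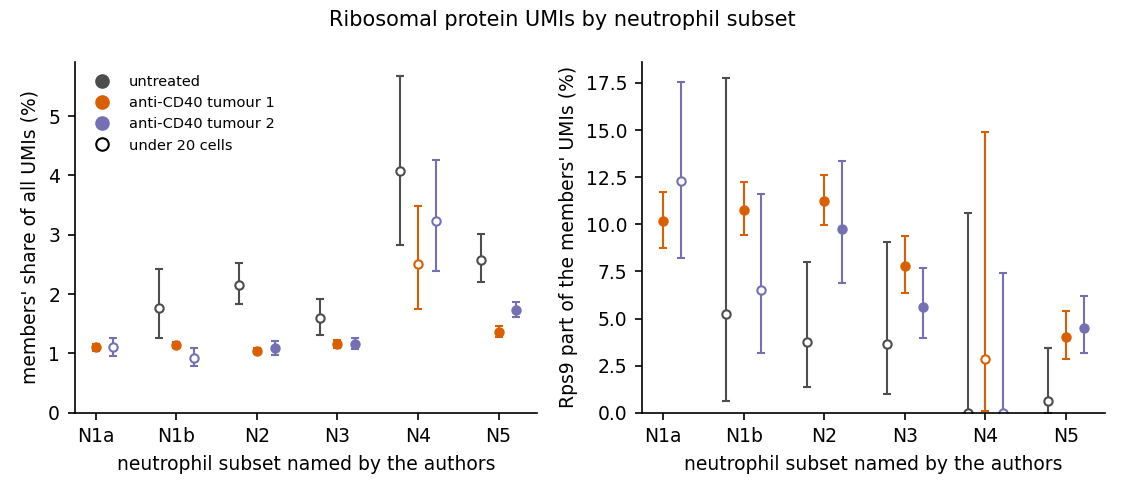
Summed share of UMIs (left, percent) and the part of Rps9 among the members' UMIs (right, percent) in the neutrophil subsets of each tumour, with exact 95% counting intervals and open points for under 20 cells. In the treated tumours N5 is highest of the filled points on the left (1.37% and 1.74%) and lowest on the right (4.01% and 4.52%).

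Between lymphocytes and myeloid cells the differences were smaller. In T cells 50 of 75 members lay above myeloid cells without overlap (24.2% of all genes), and 2 lay below (22.5%), Rps27l among them. In NK cells 43 of 75 lay above myeloid cells (18.4%) and 1 lay below (24%), which was Rps27l. With TMM over the 12 sums these counts of higher members were 39 and 20 (20.6% and 15.4% of all genes). NK cells lay above T cells for 8 members (8.9% of all genes), among them Rps27a, Rps7, Rpl7a, Rpl4, Rpl6, Rpl5 and Rpl8, and T cells above NK cells for Rps13 alone (14%). The 8 are near the background share.

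Rps15a was the member furthest above myeloid cells in both lymphocyte types. It was at 3135, 3649 and 3981 CPM in T cells, 4246, 3049 and 3682 CPM in NK cells and 1397, 1185 and 1158 CPM in myeloid cells, a median ratio of 3.08 and 3.04. Next in T cells came Rps13 (2.85-fold), Rpl39 (2.44-fold), Rps18 (2.33-fold) and Rpl17 (2.13-fold). Next in NK cells came Rpl36a (2.43-fold), Rpl32 and Rps7 (both 2.15-fold) and Rpl12 (2.11-fold).

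Rps27l, a p53-responsive paralogue of Rps27, went the other way. It was at 509, 765 and 498 CPM in myeloid cells, 196, 370 and 159 CPM in T cells and 472, 491 and 245 CPM in NK cells. The T cell level was 0.39, 0.48 and 0.32 times the myeloid level. In neutrophils Rps27l was lower still, at 85.2, 16.8 and 17.4 CPM (2, 12 and 3 UMIs). Rps25, Rps27a and Rpl6 were also among the members with the lowest T cell ratios, with medians of 0.87, 0.92 and 0.93. Between NK and T cells the medians ran from 0.70 for Rps13, 0.80 for Rps15, 0.83 for Rplp0, 0.84 for Rpsa and 0.87 for Rps2 to 1.47 for Rps7, 1.54 for Rps27l, 1.63 for Rpl4 and 1.74 for Rpl36a among the highest.

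Some members cannot be read from these columns with confidence, since near-identical copies have columns of their own. Whether reads were split between them was not tested. Rps27 had 10 UMIs in the 12 sums, while Rps27rt, a retrogene outside the name rule, was at 2172 to 6133 CPM outside neutrophils and at 1108, 745 and 1112 CPM in neutrophils. Rpl10 had 30 UMIs, while Rpl10-ps3 was at 1206 to 2676 CPM outside neutrophils and 554, 147 and 209 CPM in them. Rpl9 was at 46.4 CPM or less in neutrophils, and Rpl9-ps6 was at 341, 209 and 139 CPM there. Adding the copies and other names gave a summed share of 2.57%, 1.36% and 1.55% in neutrophils and 14.5%, 12.7% and 12.5% in myeloid cells. The paralogues of restricted tissues, Rpl3l, Rpl39l and Rpl10l, had 25, 2 and 0 UMIs. Exons of 37 of the 80 members overlap another annotated gene. For Rps2 these are Snora64, a small nucleolar RNA, and Snhg9.

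Several other parts of the translation machinery were also lower in neutrophils, to differing degrees. Rack1, a scaffold protein of the small subunit, was at 128, 50.5 and 86.9 CPM in neutrophils and at least 1376 CPM elsewhere. Eef1a1, which brings transfer RNAs to the ribosome, was at 852, 803 and 788 CPM against at least 5846 CPM. The 29 ribosome biogenesis genes summed to 298, 198 and 371 CPM against at least 2155 CPM, and the 78 mitochondrial ribosome genes to 1023, 871 and 782 CPM against at least 3224 CPM. Initiation factors differed less: the 57 genes summed to 4772, 4178 and 5273 CPM against at least 7650 CPM. The 10 growth control genes overlapped between types, at 384, 373 and 284 CPM in neutrophils (9, 266 and 49 UMIs) against at least 366 CPM elsewhere. Fau, made as a fusion with small-subunit protein S30, was at 2045, 1038 and 886 CPM against at least 2171 CPM. Tpt1, a growth-linked transcript that also starts with pyrimidines, was at 3622, 2504 and 3262 CPM against at least 5576 CPM.

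Among 1585 other genes with a mean of at least 100 CPM, Rack1 was most like the member sum over the 12 sums (Pearson r = 0.997 of log2(CPM + 1)). Then came Gpr183 (0.986), mt-Co2 and Eef1a1 (0.984 and 0.983), Eef1g and Eif3h (both 0.982), Eef1b2 (0.981), Snrpg (0.979), Atp5d and Naca (both 0.978). These sums share libraries and depth within a tumour, and the neutrophil sums set much of the spread. Among the members, Rps4x (0.833), Rps27l (0.868) and Rps9 (0.874) were least like the sum of all members.

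After anti-CD40, the summed share was lower than in the untreated tumour in 3 types and close to it in T cells. It was 0.878 and 0.862 times the untreated share in myeloid cells, 0.530 and 0.604 times in neutrophils, 0.642 and 0.910 times in NK cells, and 1.02 and 1.04 times in T cells. In myeloid cells all 4 untreated libraries (13.1 to 14.0%) lay above all 8 treated ones (10.9 to 12.2%), and in neutrophils 1.81 to 2.47% lay above 1.06 to 1.51%. T cell libraries overlapped. Libraries are technical parts of a tumour and not replicates, so the contrast is 1 untreated against 2 treated tumours. Within pool 1 and within pool 2, which held the untreated tumour and anti-CD40 tumour 1, the myeloid ratio was 0.913 and 0.839 and the neutrophil ratio 0.500 and 0.579. The direction in neutrophils depends on the scale: with TMM over the 12 sums it went from 1.70% to 1.82% and 2.05%. S100a9, an abundant neutrophil gene, was at 14530, 44304 and 28825 CPM in the neutrophils of the 3 tumours, and its part in this was not tested.

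No single member passed the test in any type. With edgeR's quasi-likelihood test on the sums per tumour and Benjamini-Hochberg adjustment over all genes, 0 of 75 members were called in myeloid cells (0.409% of all 7099 genes were called), 0 of 70 in neutrophils (0.442% of 2713), 0 of 75 in T cells (2.04% of 1865) and 0 of 74 in NK cells (1.89% of 794). DESeq2 also called 0 in each type. At an unadjusted p under 0.05 there were 0, 1, 7 and 1 members, against 9.18%, 10.9%, 11.2% and 11% of all genes. Without scaling, the median log2 change in neutrophils was -0.88 for the members and -0.28 over all genes. The scaled edgeR fit was also run on simulated counts with 4-fold changes. It recovered 7% of changed genes in myeloid cells, 8% in neutrophils, 72% in T cells and 40% in NK cells. Most such changes were therefore missed in every type but T cells. The changed genes were drawn from all genes tested, with a common dispersion per type, so these rates are not a detection limit for the members. The deposited cell annotation names 1 animal per tumour, and the spread of the single untreated tumour had to be taken from the treated ones.

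In myeloid cells the median log2 change of the members was -0.18, against 0.02 over all genes, with 23 positive and 52 negative. The most negative values were those of Rps29 (-0.74 ± 0.43 SE), Rplp1 (-0.65), Rpl28 (-0.64), Rpl3 (-0.62) and Rplp0 (-0.61), and the most positive those of Rpl4 (0.49 ± 0.43), Rps27a (0.43), Rps27l (0.31), Rps2 (0.30) and Rpl7 (0.24). Rps29 went from 3829 CPM untreated to 2224 and 2286 CPM, and Rpl4 from 1255 to 1752 and 1716 CPM. The makeup of the class moved too: C1qa was at 5215 CPM untreated and 972 and 3240 CPM treated. In C1q-positive cells alone the median of the members was -0.11.

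In neutrophils the median was -0.31 against 0.29 over all genes, a difference of -0.60. The difference was -0.36 without pool 1, -0.41 without cells that carry markers of a second type, -0.82 in cells of 300 to under 800 UMIs and -1.03 within pool 1. The median of all genes depends on the filter: with no filter on low counts it was 1.93, and that of the members was -0.06. The most negative members were Rps18 (-2.18 ± 1.14 SE), Rps27l (-1.75), Rpl12 (-1.66), Rpl36 (-1.65) and Rpl11 (-1.61), and among the most positive with UMIs in each tumour were Rpl18 (1.65 ± 1.04), Rps15a (1.37) and Rps9 (1.35 ± 0.75). Rps4x, at 0 in the untreated tumour, gives no fold. Rps18 rests on 3, 12 and 4 UMIs. Untreated neutrophils held 2 UMIs of Rpl18, 1 of Rps15a and 13 of Rps9. They held 2 of Rps27l, 7 of Rpl12, 5 of Rpl36 and 6 of Rpl11. Rps9 went from 554 to 1069 and 834 CPM while the sum of the members went down, and its adjusted p was 0.49.

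The change in neutrophils minus that in myeloid cells was tested as an interaction in 1 model of 6 sums, blocked by tumour. It called 0 of 77 members (0.0779% of 7700 genes), with 4 at an unadjusted p under 0.05 (5.58% of all genes), all 4 positive, and DESeq2 was not run for it. The sign of the members depended on the scaling. In this fit 60 were positive and 17 negative, without scaling 14 and 63, and with RLE scaling 41 and 36. Of these 4, Rps9 had the lowest p, with a difference of 1.97 ± 0.83 on the log2 scale and an adjusted p of 0.81. Rpl17 had 2.30 ± 0.99 and Rpl18 2.38 ± 1.17, with 4 and 2 UMIs in untreated neutrophils, and Rps4x was the other. The median of all genes was 1.83 in this fit and that of the members 0.64, a difference of -1.19. Without scaling the medians were 0.73 and -0.69. Genes at 0 in untreated neutrophils enter this fit with large positive values. Of the 78 mitochondrial ribosome genes 63 were at 0 there, and the 70 tested had a median of 3.79. How far such zeros set the median of all genes was not tested.

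In T cells the median of the members was 0.09 against 0.04 over all genes, with 44 positive and 31 negative. Rps2, a small-subunit protein at the messenger RNA entry, was at 940 CPM untreated and 1848 and 1617 CPM treated, a log2 change of 0.86 ± 0.28 (SE, edgeR adjusted p = 0.087). Rpl9 (1.64 ± 0.77), Rps18 (0.58), Rpl7 (0.57) and Rpl35 (0.49) were the other most positive, and Rpl9 has near-identical copies. The most negative were Rpl28 (-0.70 ± 0.25, 2051 CPM to 1247 and 1280 CPM, edgeR adjusted p = 0.16), Rps26 (-0.60), Rps29 (-0.58), Rps21 (-0.43) and Rpl37 (-0.40). Values of the 9 myeloid markers in T cells moved with treatment, from 3226 CPM untreated to 139 and 206 CPM. Without cells that carry markers of a second type, the median of the members was 0.07 against 0.03 over all genes. The part of the myeloid markers in the changes of single members was not tested.

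In NK cells the median was -0.29 against 0.05, with 13 positive and 61 negative. Rps26 had the most negative value (-1.26 ± 0.55 SE), from 3431 CPM untreated to 1137 and 1685 CPM, and Rpl41 (-1.13), Rpl37 (-1.01) and Rps28 (-0.86) were also among the most negative. Rps4x (0.95 ± 0.64), Rps2 (0.39), Rps6 (0.39), Rpl35 (0.34) and Rpl21 (0.28) were the most positive. NK cells of anti-CD40 tumour 1 stood apart: their 8 proliferation genes summed to 2093 CPM, against 257 CPM untreated and 221 CPM in the other treated tumour, and their libraries ranged from 12.8% to 20.4% in the summed share. Without anti-CD40 tumour 1, the median of the members was -0.09.

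**Figure D5:**
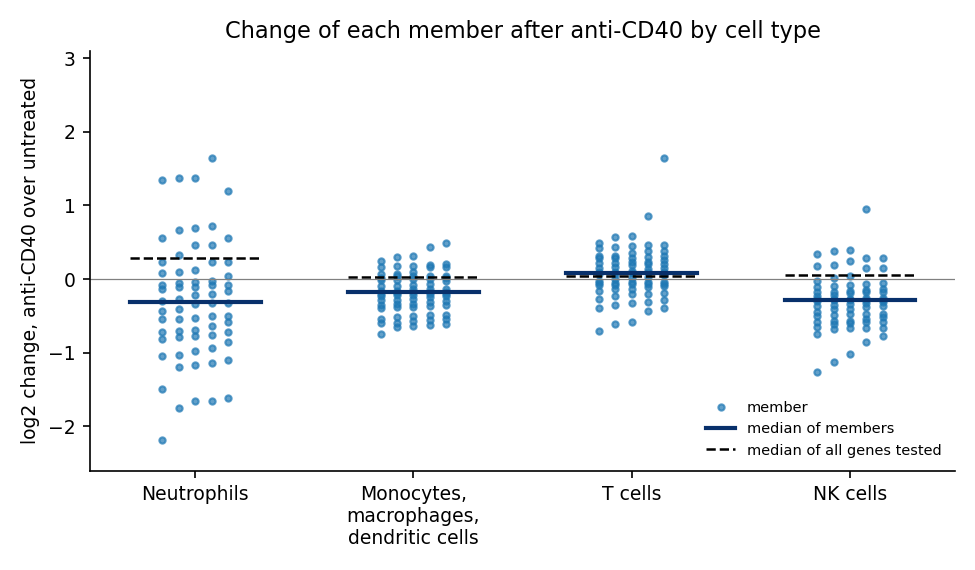
Log2 change after anti-CD40 over untreated (vertical axis) of each tested member in the 4 cell types as points, with the median of members as a solid bar and the median of all genes tested as a dashed line; Rps4x in neutrophils, at 0 untreated, lies outside the axis. Members centre at -0.31, -0.18, 0.09 and -0.29, and no point passed the test.

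The rest of the pathway gave few calls as well. Of the lists of translation and ribosome genes outside the members, 1 gene passed the test: Btf3, a subunit of the complex that binds nascent chains, rose in T cells (log2 change 1.29 ± 0.33 SE, edgeR adjusted p = 0.0053), 1 of 4 tested genes in the list of poly(A) binding and nascent chain genes, where 2.04% of all genes were called. Over 14 fits its adjusted p ran from 0.0052 to 0.998 and was under 0.05 in 6. It was not called by DESeq2 (adjusted p = 0.998), with no filter on low counts (0.20) or without second-type cells (0.053). In the same list Naca had 0.59, Serbp1 0.12 and Pabpc1 -0.26. No elongation factor was called in any of the 4 types (7, 4, 5 and 5 tested in myeloid cells, neutrophils, T cells and NK cells), with Eef1e1 highest (1.34 ± 0.53) and Eef2 lowest (-0.47 ± 0.39) in myeloid cells. Of 28 biogenesis genes tested in myeloid cells 0 were called, with Rrp9 (2.61 ± 0.69) and Rrs1 (2.08 ± 0.64) highest and Dkc1 (-0.93) and Fbl (-0.43) lowest. Mitochondrial ribosome genes gave 0 calls of 70 in myeloid cells, from -1.11 for Mrpl37 and -0.84 for Mrpl14 to 0.93 for Mrpl9 and 0.95 for Mrpl32.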

How the data were processed

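Single CD45+ cells of MC38 tumours were profiled by inDrops. The authors deposited whole-number UMI counts per cell and gene, not normalised, with their own cell types and neutrophil subsets. bcl2fastq, STAR and the build GRCm38 are named in the submitters' processing notes; for versions, counter, annotation, strand, cell filters and doublets the entry is "not given in the sources used here". All cells were kept, without a doublet caller. The members and gene lists were chosen with earlier results of these data known.

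Sums of UMIs were formed for each tumour and type, with shares in percent of all UMIs and levels as counts per 1000000 UMIs (CPM). Treatment was compared in edgeR 4.0.16 (R 4.3.3; TMM, filterByExpr, robust quasi-likelihood test, adjusted p under 0.05), with 1 residual degree of freedom, and DESeq2 1.42.0 as an alternative. Log2 changes carry standard errors from the F statistic, and p-values lean on a variance pooled across genes. The fit was tested on simulated data. Depth ranged from 707889 to 1862139 UMIs per tumour. Named genes were the 5 most positive and 5 most negative members per fit, the 5 largest and smallest differences per pair of types, stalk genes and paralogues, and for pathway lists the 2 highest and lowest values, given only for part of the lists and types. Some members that this rule names are not reported here. Settings tried were scaling, filters, cell depth, second-type cells, libraries and pools left out, and added copies. Depth per cell from 300 to under 800 UMIs and TMM over 12 sums were added after seeing the data. GENCODE and RefSeq tables gave positions and starts. Python 3.11.15, numpy 2.4.6, pandas 2.3.3, scipy 1.17.1 and matplotlib were used.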

Additional observations from a re-analysis of the deposited data

Results flagged for a closer look

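The summed share moved up in both treated tumours in T cells and down in both in the other 3 types, opposite directions in every treated tumour. On the log2 scale the mean change in T cells exceeded that in myeloid cells by 0.24, that in neutrophils by 0.86 and that in NK cells by 0.43. These differences were not tested, the T cell rise was 1.02 and 1.04 times, and it was not seen without cells that carry markers of a second type (0.998 times on average). With TMM over the 12 sums the difference from neutrophils turned to -0.11, and those from myeloid cells and NK cells were 0.35 and 0.46.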

How the results depend on the processing

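The shallowest sums were those of untreated NK cells (23315 UMIs) and untreated neutrophils (23468 UMIs). With TMM over the 12 sums, the median share ratio to neutrophils fell to 5.94 for myeloid cells, 8.62 for T cells and 9.89 for NK cells, and the mean treated over untreated ratio became 1.14 in neutrophils (reversed), 0.83 in myeloid cells and 1.05 in T cells. Members above myeloid cells in NK cells were then 20, and those above T cells in NK cells 4 (9.11% of all genes).

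The treated over untreated ratio of myeloid cells was 0.886 thinned to 300 UMIs, 0.909 in cells of 300 to under 800 UMIs, 0.913 within pool 1 and 0.839 within pool 2. That of neutrophils was 0.500 within pool 1. That of T cells was 0.998 (reversed) without second-type cells, 1.09 in cells of 300 to under 800 UMIs, 1.01 within pool 2 and 1.06 as a mean over cells. Within pool 2 that of NK cells was 0.551, and their share over that of myeloid cells was 1.40.

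Members called in T cells were 1 after thinning (Rps29, lower, where 2.09% of all genes were called) and 1 without pool 3 (Rps2, higher, 2.14%). Members above myeloid cells in NK cells were 25 without pool 1 (13.6% of all genes). Members above T cells in NK cells were 4 without second-type cells (8.9% of all genes), 15 in cells of 300 to under 800 UMIs (4.34%), 4 without pool 1 (7.46%) and 16 without pool 2 (7.04%). In NK cells the change of Rps4x was -0.0079 (reversed) within pool 2. The median change of members in neutrophils was 0.30 without pool 1, against 0.67 over all genes. The causes were not tested. No paired analysis was possible because the conditions share fewer than 2 replicate numbers. The untreated tumour and anti-CD40 tumour 1 share pools 1 and 2, and the within-pool values above compare them there without a test. Leaving out each library in turn moved no share ratio by more than 1 SD over tumours. The treated over untreated ratio then ran from 0.861 to 0.878 in myeloid cells, 0.538 to 0.600 in neutrophils, 1.02 to 1.04 in T cells and 0.743 to 0.793 in NK cells.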
